A study of Oryza sativa Japonica Group with 4 samples.

Results

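The regions described here are the narrow H3K14cr regions without Kcr, namely stretches of the rice genome that were enriched with an antibody specific for histone H3 crotonylated at lysine 14 (H3K14cr), that were at most 2000 bp wide and that shared no base with a region enriched with a pan-crotonyllysine antibody. They were chosen by measured values, since both the width and the overlap with Kcr come from the deposited region lists. The rule found 7426 such regions among 18813 H3K14cr regions, a share of 39.5% (95% Wilson interval 38.8 to 40.2%). Their number and their lack of Kcr are therefore descriptions and carry no test.

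Chromatin immunoprecipitation followed by sequencing was carried out on seedlings of Oryza sativa cultivar Nipponbare, a japonica rice, at an age of 2 weeks. The tissue was mostly leaf with some stem, so each list is an average over the cell types of the shoot. A total of 4 libraries was made, 2 with the pan anti-Kcr antibody and 2 with the H3K14cr antibody. Normal rabbit serum served as a mock control according to the labels, and its data are not analysed here. Each antibody is represented by 1 list that stands for both of its replicates and gives the chromosome, start and end of every region. With no read number, score or replicate value per region, the depth is unknown and no difference between the antibodies has a replicate check. The spread over the 12 chromosomes is given in its place; chromosomes are not replicates, and no p-value was computed.

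Lysine crotonylation is an acyl modification that uses crotonyl-CoA as the donor. On histone tails it neutralises the positive charge of lysine, as acetylation does, and in mammalian cells it is written by acetyltransferases such as p300, removed by class I histone deacetylases and recognised by YEATS and double PHD finger domains. In mammals, histone crotonylation is known mainly from promoters and other active regions. A pan antibody is raised to bind crotonyllysine in any sequence context, whereas the H3K14cr antibody is raised against a single residue of histone H3. Absence of a region from the Kcr list cannot be told apart from a Kcr signal below the threshold of that list. No genome sequence or annotation of the build of the lists was used here, so no sequence is shown and the regions are named by position as deposited.

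The narrow regions without Kcr were the most numerous of the 4 classes formed by width and Kcr overlap. Broad regions without Kcr (over 2000 bp) numbered 4406, narrow regions with Kcr 5019 and broad regions with Kcr 1962. The narrow regions without Kcr nevertheless covered 10.3 Mb, or 28.9% of all H3K14cr bases, which was less than the 12.9 Mb (36.1%) of the broad regions without Kcr. Among all narrow H3K14cr regions, 59.7% (58.8 to 60.5%) had no Kcr, and among all broad ones 69.2% (68.0 to 70.3%). The share without Kcr in the whole H3K14cr list was 62.9%. Both criteria of the rule enter these shares, so nothing is read from them.

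Most narrow regions without Kcr were between 1 and 2 kb wide. Their median width was 1355 bp, the central 50% lay between 1123 and 1645 bp, and the central 80% lay between 999 and 1851.5 bp. The most populated step was that over 1000 and up to 1200 bp, which held 1802 regions or 24.3%. Regions of at most 1000 bp were few, at 761. Narrow regions with Kcr had a slightly lower median of 1263 bp (central 50% between 1091 and 1566.5 bp). From the step of 1000 to 1200 bp to that of 1800 to 2000 bp, the share without Kcr among narrow regions went from 54.0% to 67.1%. In the few regions up to 800 bp it was 66.7%, which rests on 70 of 105 regions. Median widths of the narrow regions without Kcr on single chromosomes lay between 1300 bp on chromosome 12 and 1392 bp on chromosome 3, with a mean of 1353 ± 29 bp (SD, n = 12 chromosomes).

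**Figure D1:**
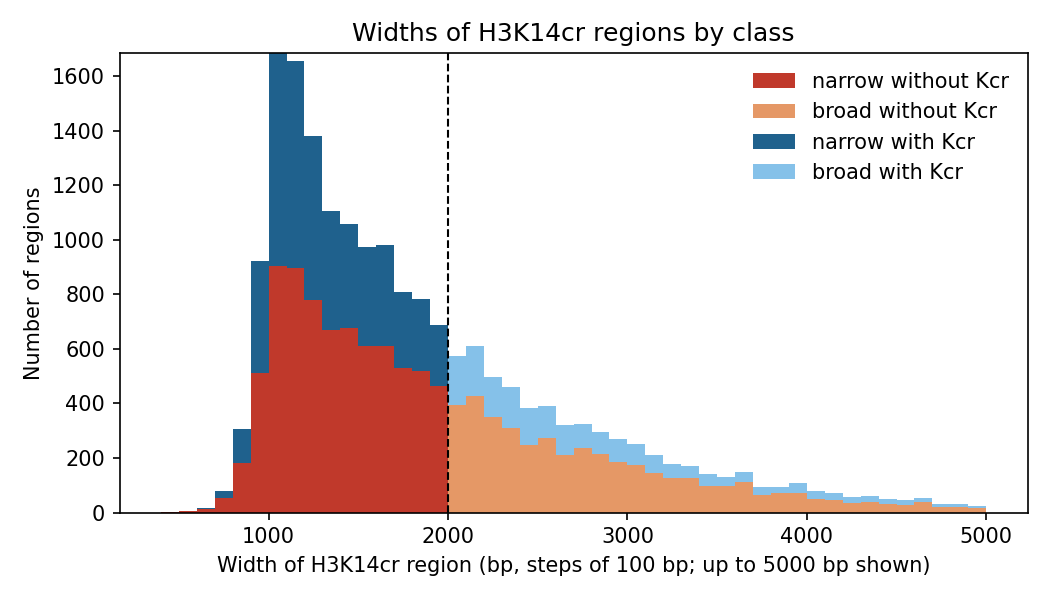
Number of H3K14cr regions (vertical axis) by width in steps of 100 bp (horizontal axis), stacked by class, with the limit of 2000 bp as a dashed line. The numbers run on without a break across the limit, where 233 regions without Kcr lay within 50 bp below it and 223 within 50 bp above it.

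The limit of 2000 bp did not fall on a gap in the widths. Within 50 bp below and up to the limit there were 233 regions without Kcr, and in the 50 bp above it there were 223. The 3 widest members were each exactly 2000 bp wide (a width that 5 members had), at chr2:953695-955695, chr3:31557386-31559386 and chr5:8863024-8865024. Just above the limit lay the regions chr3:3343434-3345435 and chr4:21030977-21032978, both 2001 bp wide and without Kcr. At the other extreme, the narrowest members were chr4:8544326-8544820 with 494 bp, chr5:9967904-9968444 with 540 bp and chr4:18811100-18811644 with 544 bp. Widths were thus continuous around the limit.

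The second criterion, no base shared with Kcr, had few regions close to its limit. Of the members, 14 came within 50 bp of a Kcr region, and 13 narrow regions overlapped Kcr by 50 bp or less. The closest members lay 2 bp (chr4:29458085-29458917), 9 bp (chr3:17441494-17442506) and 19 bp (chr7:24633422-24634650) from a Kcr region. Just outside the rule, the smallest overlaps with Kcr were 4 bp in chr1:30235814-30237014, 6 bp in chr12:1410121-1411713 and 12 bp in chr6:4732177-4734019. Where a narrow H3K14cr region did overlap Kcr, a median of 92.0% of its bases lay under Kcr, and 21 of the 5019 were covered by less than 10%. Borderline cases were thus rare on either side of the criterion. Gaps to Kcr had a median of 11566.5 bp, so a low count within 50 bp does not make this border clearer than that of width.

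Most narrow regions without Kcr lay several kilobases from the nearest Kcr region. The median gap, measured from edge to edge, was 11566.5 bp, and the central 50% of gaps lay between 5079 and 24383 bp. A Kcr region was found within 200 bp of 83 members (1.12%), within 1 kb of 374 (5.04%) and within 10 kb of 3353 (45.2%). At the far end, 609 members were more than 50 kb and 97 more than 100 kb from Kcr. The most distant were chr4:10745868-10746695 at 202191 bp, chr8:7125516-7126387 at 195830 bp and chr12:21824712-21825793 at 194935 bp. All of these had another H3K14cr region closer by, at 18370, 8269 and 4393 bp. Median gaps on single chromosomes lay between 8759 bp on chromosome 3 and 14911 bp on chromosome 12, the former being the chromosome with the highest Kcr density (35.7 regions per Mb) and the latter having 25.5 per Mb. Members over 50 kb from Kcr made up 3.27% of the members on chromosome 3 and 14.7% on chromosome 12.

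Compared with broad regions without Kcr, narrow ones had their edges less often within 5 kb of Kcr. Within 5 kb of Kcr lay 1817 narrow regions, or 24.5% (23.5 to 25.5%), and 1298 broad regions, or 29.5% (28.1 to 30.8%). The share over all H3K14cr regions without Kcr was 26.3%. The narrow share was the lower on 11 of 12 chromosomes, with chromosome 10 as the exception (25.2% against 21.6%). The difference within chromosomes was -4.64 ± 4.17 percentage points (SD, n = 12 chromosomes), narrow minus broad. The median gap of narrow regions was the longer on 8 of 12 chromosomes, but on chromosome 12 it was 14911 bp against 18791 bp and on chromosome 11 13111 bp against 17087 bp. At long distances the order was turned, with 8.20% of narrow and 8.85% of broad regions more than 50 kb from Kcr. The edge of a broad region reaches farther from its midpoint by construction. From midpoint to midpoint, the shares within 5 kb were 17.1% for narrow and 17.3% for broad regions, and with the classes divided at 1500 bp they were 16.2% and 17.8%.

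**Figure D2:**
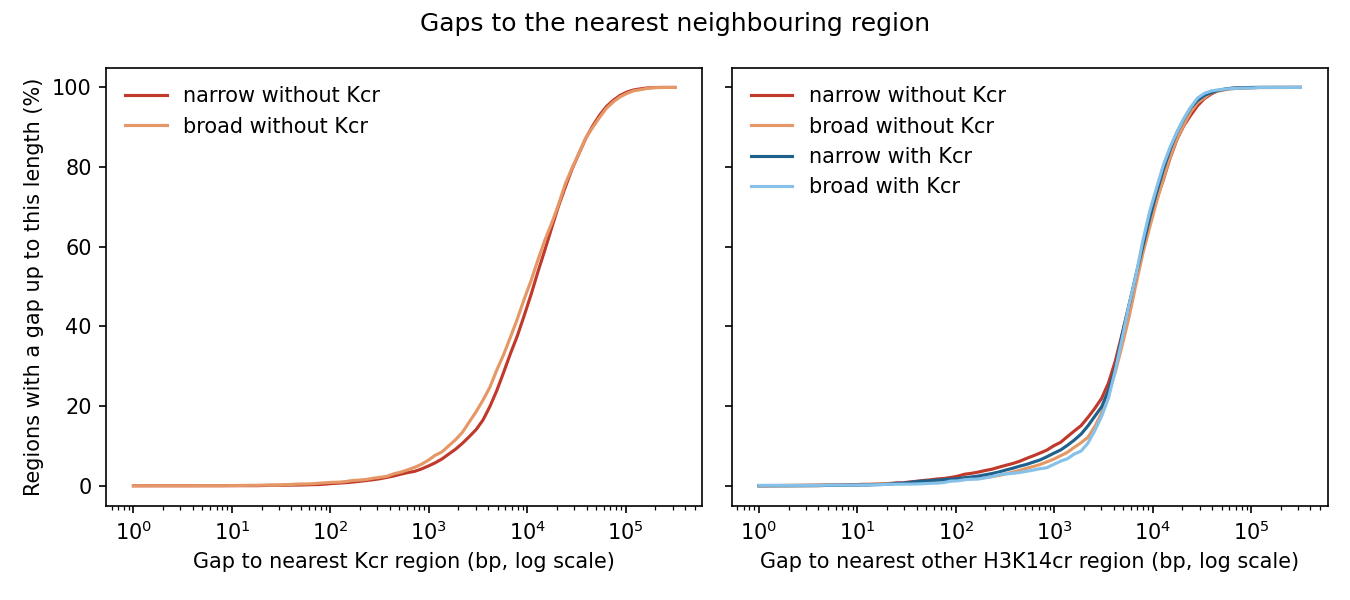
Share of regions (vertical axis, percent) whose gap to the nearest Kcr region (left) or to the nearest other H3K14cr region (right) was at most the length on the horizontal axis (bp, log scale), with 1 line per class. The curve of narrow regions without Kcr lies a little below that of broad ones at 1 to 10 kb from Kcr, and above the other classes at gaps under about 1 kb from H3K14cr.

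The nearest Kcr region lay on either side equally often, at lower coordinates in 50.8% of members (49.7 to 52.0%). It was itself a region that overlapped H3K14cr in 4731 members, or 63.7% (62.6 to 64.8%), close to the 63.9% of all Kcr regions. For broad regions without Kcr the share was 60.0% (58.5 to 61.4%). The classes stood farther apart in the immediate vicinity of Kcr. Among regions within 1 kb of Kcr, the neighbouring Kcr region overlapped some other H3K14cr region in 210 of 374 narrow cases, or 56.1% (51.1 to 61.1%), and in 92 of 286 broad cases, or 32.2% (27.0 to 37.8%). Within 200 bp the numbers were 45 of 83 and 14 of 63. The intervals cover counting error alone, and the difference was not tested.

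Widths changed little with the distance from Kcr. Members within 200 bp of Kcr had a median width of 1396 bp, those at 5 to 10 kb 1358 bp and those beyond 50 kb 1329 bp. Across the 7426 members Spearman's rho between width and gap was -0.06, given as a description. Of all H3K14cr regions without Kcr, the narrow ones made up 56.8% within 200 bp of Kcr (83 of 146), 65.2% at 10 to 50 kb (3464 of 5315) and 61.0% beyond 50 kb (609 of 999). Over all distances the narrow share was 62.8% (7426 of 11832). The majority of narrow regions in each of the 7 distance bands therefore reflects the class sizes.

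Seen from the Kcr list, longer spaces between Kcr regions held a member more often, but not at a higher density in the longest spaces. Of 10911 spaces between neighbouring Kcr regions, 4223 (38.7%) held at least 1 member. The share was 1.74% for spaces up to 5 kb, 25.8% for those of 10 to 20 kb, 51.7% for those of 20 to 50 kb and 91.1% for those over 100 kb. Per 100 kb of space, there were 0.54 members in the shortest spaces, 2.23 at 20 to 50 kb, 2.28 at 50 to 100 kb and 1.91 in the longest. The number over all spaces was 2.07 per 100 kb. A member has to be contained in the space, which by itself lowers the number in short spaces. Above 20 kb the number per length changed little. Within the spaces, the members were spread almost evenly between the Kcr borders. Each of 10 equal parts of the available room held between 9.30% and 10.6% of them. Broad regions without Kcr were spread similarly, with 9.09% to 11.1% per part. Most members in a single space were 14, found at chr6:8070309-8301541 and at chr7:13312254-13529643, followed by 12 at chr8:23615882-23755765. Longer spaces held more members on average, from 0.29 per space at 10 to 20 kb to 3.02 over 100 kb. The longest space, 656173 bp at chr6:18165528-18821701, held 2.

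Within their own list, narrow regions without Kcr had neighbours at about the usual distance. The median gap to the nearest other H3K14cr region was 6425 bp, the central 50% of gaps lying between 3445 and 12005 bp, beside 6688.5 bp for broad regions without Kcr, 6363 bp for narrow regions with Kcr and 6459 bp for all H3K14cr regions. The median was shorter than that of broad regions without Kcr on 11 of 12 chromosomes, with a difference within chromosomes of -309 ± 389 bp (SD, n = 12 chromosomes), narrow minus broad; chromosome 12 was the exception. The most isolated members were chr4:10468317-10469654 at 143744 bp, chr5:9967904-9968444 at 120191 bp and chr5:10527565-10528656 at 100643 bp from the next H3K14cr region. The first and last of these had Kcr nearby, at 2175 and 1882 bp, whereas the region of 540 bp on chromosome 5 was 139393 bp from Kcr. Members that were both over 50 kb from Kcr and over 20 kb from H3K14cr numbered 149.

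Very close neighbours were more frequent. Within 1 kb of another H3K14cr region lay 752 members, or 10.1% (9.46 to 10.8%), beside 8.33% of all H3K14cr regions. The share was 6.72% (6.02 to 7.50%) for broad regions without Kcr and 8.21% (7.48 to 9.001%) for narrow regions with Kcr. This difference was not tested. The members had the higher share on 11 of 12 chromosomes in the first comparison, with chromosome 12 as the exception, and on 9 of 12 in the second. Over the chromosomes the member share was 9.96 ± 1.52% (SD, n = 12 chromosomes). In 400 of the 752 cases (53.2%) the close neighbour was itself a narrow region without Kcr. Members made up 39.5% of all H3K14cr regions and 41.1% of the regions next after a member. The same share was not computed for close neighbours of the other classes, and the difference was not tested. When regions up to 200 bp apart were joined, the share was 6.54%, beside 4.69% for broad regions without Kcr and 5.61% for narrow regions with Kcr, so the order of the classes was kept.

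Some members were 1 of a pair of almost touching regions. Among 277 pairs of adjacent H3K14cr regions at most 200 bp apart, both regions were members in 87 and 1 region was in 112. In the latter the partner was a broad region without Kcr in 44 pairs, a narrow region with Kcr in 52 and a broad region with Kcr in 16. Joining the pairs of members would have made 82 of the 87 wider than 2000 bp, with a median joined width of 2805 bp. A total of 285 members (3.84%) had a neighbour at this distance, and the other members had no H3K14cr neighbour that close.

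Members followed each other in the list slightly more often than they followed any region. The next H3K14cr region after a member was again a member in 3050 of 7423 cases, or 41.1% (40.0 to 42.2%), against 39.5% after any H3K14cr region. The share after a member was the higher on 11 of 12 chromosomes, with chromosome 3 as the exception, and the difference within chromosomes was 1.48 ± 1.24 percentage points (SD, n = 12 chromosomes). It was not tested. After a broad region with Kcr, a member followed in 35.0% of cases (32.9 to 37.1%). Each of the other classes likewise followed itself more often than it followed any region, so this is not particular to the members. The shares were 25.6% against 23.4% for broad regions without Kcr and 28.9% against 26.7% for narrow regions with Kcr. For broad regions with Kcr they were 13.7% against 10.4%. Uninterrupted runs of members numbered 4376, of which 2588 were single members. Runs of 5 or more members numbered 133 and held 770 members, or 10.4%. The widths of adjacent members were nearly unrelated, with Spearman's rho of 0.04 over 3050 pairs, which share regions between them.

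The longest run held 14 members and lay on chromosome 7 at chr7:13313384-13501229. It spanned 187845 bp without a Kcr region or an H3K14cr region of any other class. Its members were 829 to 1698 bp wide with a median of 1141.5 bp, below the median of the class, and the gaps between them were 2075 to 51386 bp. The distance of its members from Kcr ranged from 1130 bp at the lower edge of the run to 103334 bp at its ninth member, chr7:13415588-13416417. The next longest runs held 9 members each and were interrupted by Kcr regions that overlapped no member. They lay at chr4:5570205-5739256 with 1 Kcr region inside, at chr5:8174695-8470101 with 3 and at chr5:19729189-19828214 with 1, and a further run of 9 lay at chr6:8136735-8319007 with 1. The runs of 9 differed in extent, from 99025 to 295406 bp.

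**Figure D3:**
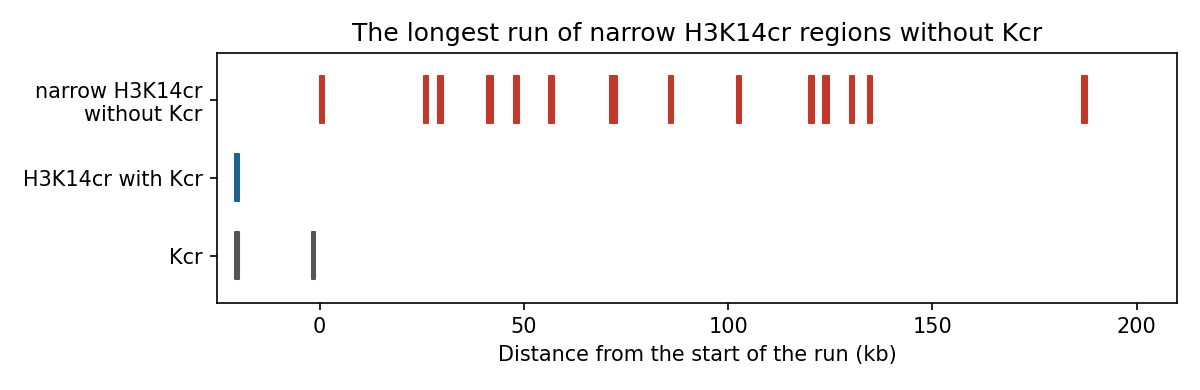
Map of the longest run of narrow H3K14cr regions without Kcr, with the distance from the start of the run in kb on the horizontal axis and 20 kb shown on either side; each bar is a region. The 14 members span 187.845 kb with no Kcr region among them, while 2 Kcr regions lie below the start of the run.

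From chromosome to chromosome, narrow regions without Kcr varied less in density than broad regions without Kcr, narrow regions with Kcr and Kcr. This difference was not tested, and the SDs include counting error. Density per chromosome was not computed for broad regions with Kcr. The members had 19.8 ± 0.85 regions per Mb (SD, n = 12 chromosomes), from 18.6 on chromosome 8 to 21.3 on chromosome 1, a range of 1.15-fold. Kcr density ranged over 1.42-fold, from 25.2 per Mb on chromosome 11 to 35.7 on chromosome 3. Broad regions without Kcr had 11.6 ± 1.60 per Mb and narrow regions with Kcr 13.4 ± 1.30 per Mb, so their spread over chromosomes was larger from a smaller mean. The chromosomes rich in Kcr (1, 2 and 3) had the lowest member shares of the H3K14cr list, at 36.9%, 37.1% and 35.6%. The share over all chromosomes was 39.5%. Lack of Kcr defines the members, so the low shares follow in part from the rule. The highest share, 42.6%, was found on chromosome 6. On chromosomes 1, 2 and 3 the members themselves were not sparser, at 21.3, 20.1 and 20.2 per Mb.

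**Figure D4:**
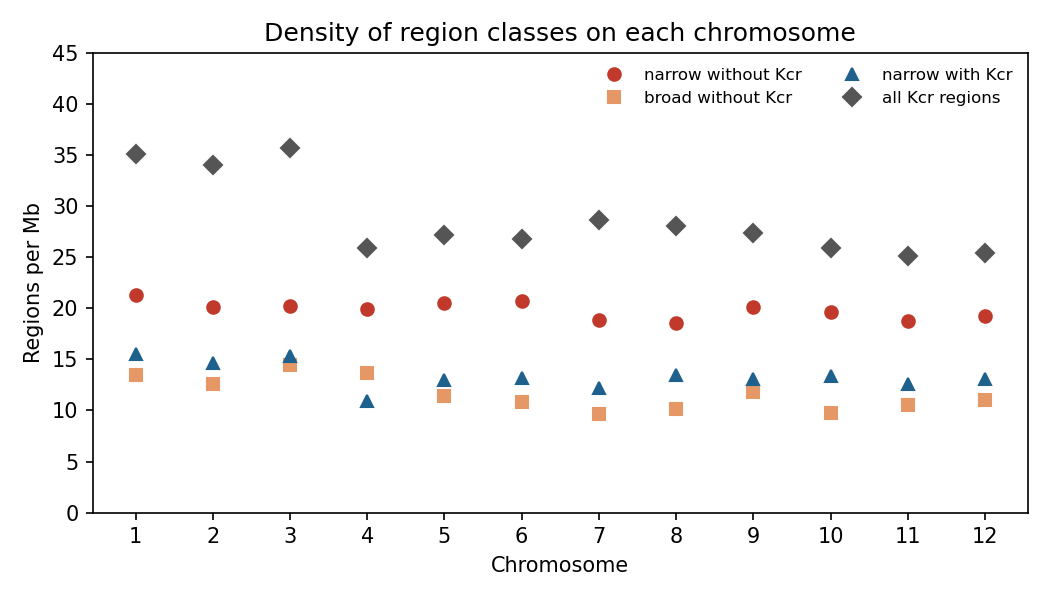
Regions per Mb (vertical axis) on each of the 12 chromosomes (horizontal axis) for narrow H3K14cr regions without Kcr, broad ones without Kcr, narrow ones with Kcr and all Kcr regions; each point is 1 chromosome. The narrow regions without Kcr stay between 18.6 and 21.3 per Mb, while Kcr is above 34 per Mb on chromosomes 1 to 3 and below 29 on the others.

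The order was the same in windows of 1 Mb. The 367 full windows held 19.98 ± 5.48 members (SD), with a median of 20 and a range of 4 to 36. The coefficient of variation beyond counting error, obtained by subtracting the mean from the variance, was 15.9% for members. It was 33.6% for broad regions without Kcr, 23.6% for narrow regions with Kcr, 52.5% for broad regions with Kcr and 29.7% for Kcr. Members formed a median of 40.0% of the H3K14cr regions of a window (interquartile range 34.0 to 46.1%).

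None of the windows with the most or the fewest members was a first or last window, but only 24 of the 367 full windows were. Most members, 36, were found at chr8:23000001-24000000, beside 30 Kcr regions, and 35 at chr4:18000001-19000000, beside 33 Kcr regions. The fewest, 4, were found at chr6:18000001-19000000 and at chr11:12000001-13000000, where all classes together numbered 15 H3K14cr regions in each. In the former window Kcr was also sparse, with 8 regions, and in the latter there were 16. The window on chromosome 6 contains the longest space between Kcr regions described above.

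The number of members in a window was weakly related to the number of Kcr regions. Spearman's rho over the 367 windows was 0.15 for members and 0.33 for broad regions without Kcr, both being classes from which Kcr overlap was removed by the same criterion. In windows of 500 kb the rho of members was 0.068. For narrow regions with Kcr it was 0.71, which follows in part from the presence of Kcr in that class. Computed chromosome by chromosome, the rho of members was lowest on chromosome 2 (-0.26) and highest on chromosome 4 (0.51). In the 92 windows with the least Kcr (7 to 21 regions) there were 18 ± 5.69 members (SD, n = 92 windows), and in the 92 with the most (35 to 65 regions) 20.4 ± 4.30 (SD, n = 92 windows). Between the same sets of windows, broad regions without Kcr went from 9.76 to 14.3 per window and narrow regions with Kcr from 8.53 to 17.3. Neighbouring windows share their surroundings, so these values are descriptions.

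**Figure D5:**
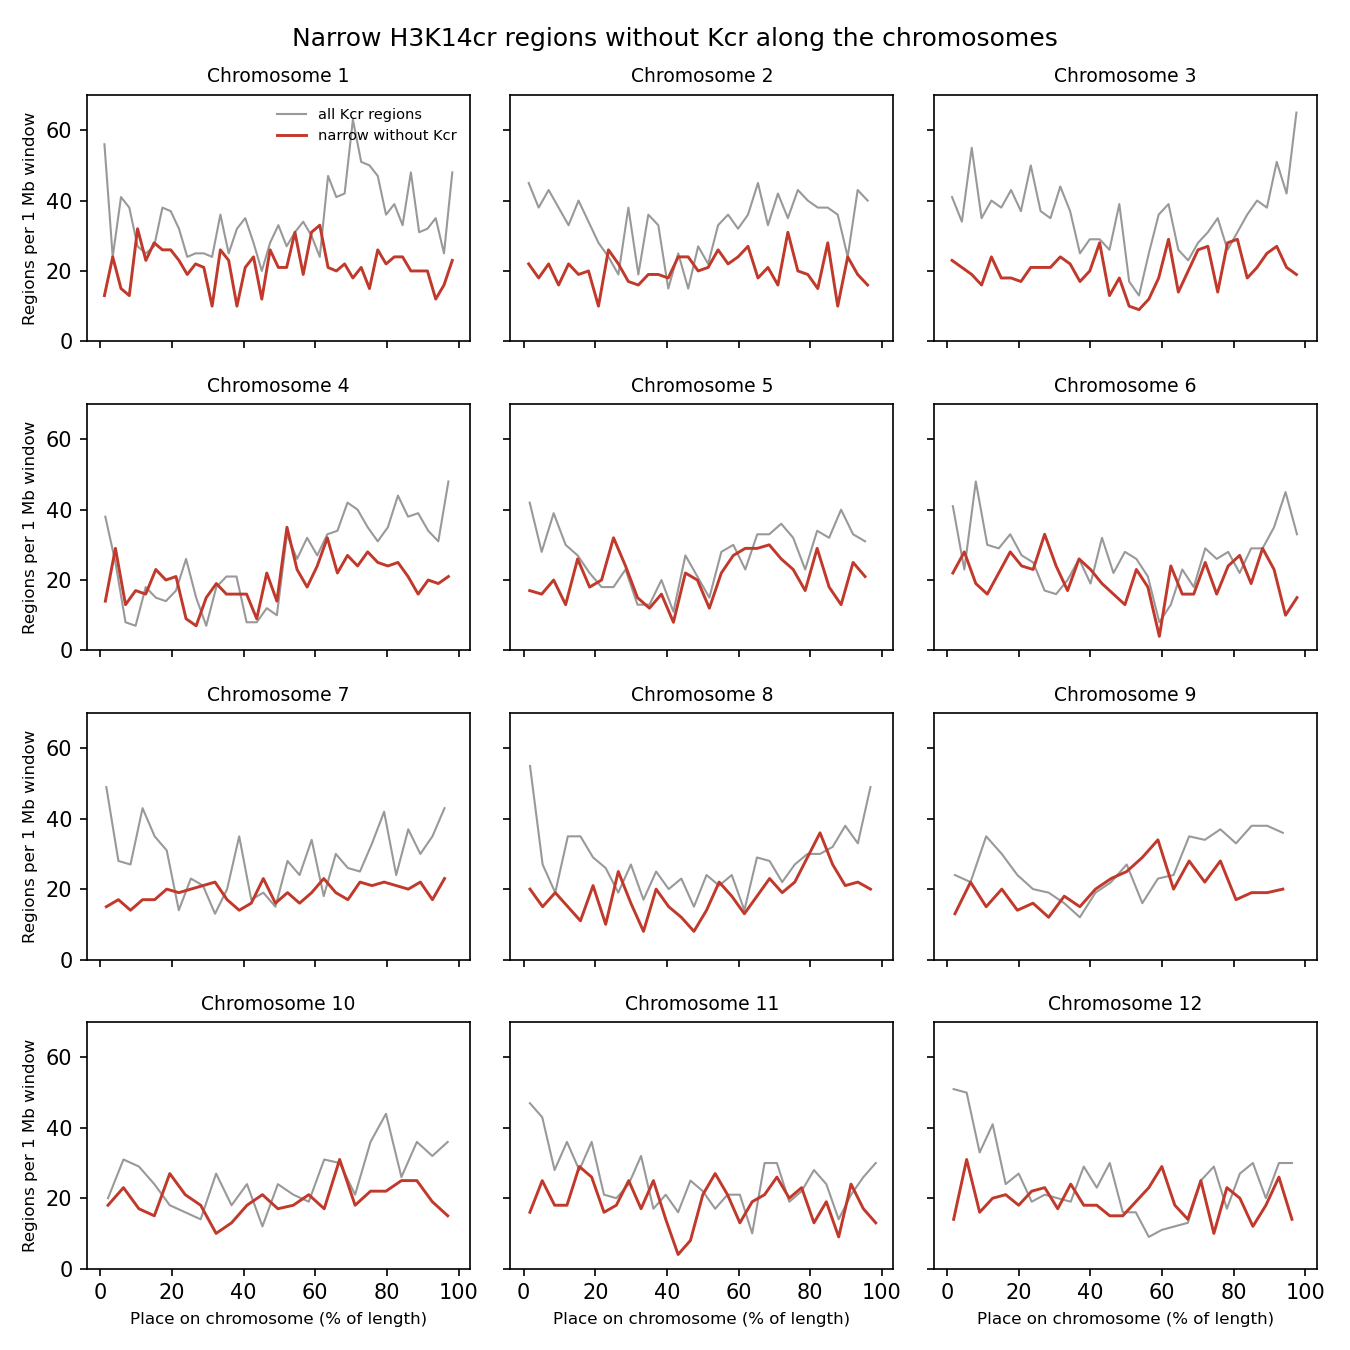
Number of regions in each full 1 Mb window (vertical axis) against the place of the window on the chromosome in percent of its length (horizontal axis), for narrow H3K14cr regions without Kcr (red) and all Kcr regions (grey), with 1 panel per chromosome. The red line stays between 4 and 36, while the grey line ranges from 7 to 65 and is raised at many chromosome ends.

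At the ends of the chromosomes, where Kcr was dense, members were not enriched. The first and last full windows held 17.8 ± 3.59 members (SD, n = 24 windows) and the others 20.1 ± 5.56 (SD, n = 343 windows), a ratio of 0.88. The corresponding ratio was 0.91 for broad regions without Kcr, 1.30 for narrow regions with Kcr and 1.57 for broad regions with Kcr. It was 1.07 for all H3K14cr regions and 1.49 for Kcr. Overlap with Kcr defines the classes, so their different ratios follow in part from the rule. The end windows had fewer members than the rest of their chromosome on 9 of 12 chromosomes, and single end windows ranged from 13 to 23 members. The difference within chromosomes was -2.28 ± 2.25 members per window (SD, n = 12 chromosomes), ends minus the rest, and was not tested. Counted from the ends themselves, the outermost 1 Mb held 16.9 members per Mb, the following 1 Mb 20.9 and the stretch from 2 to 4 Mb 18.6. With windows of 500 kb the ratio was 0.77 and with windows of 2 Mb it was 0.98. The first windows of chromosomes 11 and 12 had 16 and 14 members, within the 13 to 23 of all first windows. They had 4 and 6 broad regions without Kcr and 28 and 26 narrow regions with Kcr.

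Chromosome 4, where members and Kcr were most closely related, differed between its parts. Its first 18 full windows held 16.4 ± 5.41 members (SD, n = 18 windows) and the following 17 held 23.8 ± 4.84 (SD, n = 17 windows), a ratio of 1.45. Kcr had 16 and 35.4 regions per window in the same parts, a ratio of 2.21, and broad regions without Kcr had 8.83 and 18.8, a ratio of 2.12. Narrow regions with Kcr had 8.56 and 13.1, a ratio of 1.53, which was near that of the members. The border between the parts had been placed earlier where the Kcr contrast was largest, so the ratios do not compare the classes on equal terms.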

How the data were processed

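ChIP-seq libraries of rice seedlings were made, 2 per antibody; the submitters' processing notes name Bowtie, a short-read aligner. Not given in the sources used here: its version, the build, how regions were called, with which threshold and mock, and whether replicates were pooled. The authors deposited 1 list per antibody with 3 columns (chromosome, start, end, in bp) and no other value; depth and precision per region are unknown. Whether starts count from 0 or 1 is unknown, so positions may be off by 1 bp.

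From the lists, width was computed as end minus start, overlap as at least 1 shared bp, and gaps from edge to edge; 0 H3K14cr regions touched Kcr without overlap. Densities used region midpoints in full windows of 1 Mb, with the last region end as chromosome length. Python 3.11.15, pandas 2.3.3 and scipy 1.17.1 were used. The overlap, gap and class rules were tested on simulated data. Wilson intervals (95%) cover counting error only, and neighbouring regions are not independent. No test was made, since both lists chose the members and no replicate values were at hand. Regions named are extremes of width, gap, run length and window count under a fixed rule; the runs ranked 4 and 5, the smallest overlaps, the spaces between Kcr regions and the border on chromosome 4 were chosen after their values were seen. The members and measures were chosen with earlier results of these data known. The gene table at hand names an assembly not known to be that of the lists, so genes, base composition and sequences were not analysed.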

Additional observations from a re-analysis of the deposited data

How the results depend on the processing

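No paired analysis was possible because each antibody has 1 list for both replicates, and no replicate could be left out for the same reason. Of 48 alternatives on 8 results, 38 stayed within the spread used for comparison. This spread was 1.5-fold for the number of members and a 95% binomial interval for shares and medians. For the density ratio and the rank correlation it was the SD over chromosomes, which is wide for the latter (-0.11 to 0.41). Many of the 48 left out a single chromosome, which keeps most regions, and all of these stayed within the spread. The 10 that moved were among the other alternatives, so the count of 38 does not measure robustness. With a width limit of 1500 bp there were 4689 members, 23.3% lay within 5 kb of Kcr, and the next region was a member in 27.4% of cases (24.9% after any region). With a limit of 2500 bp that share was 50.5% (48.7% after any region). The numbers of members and next regions follow from the smaller or larger class; the cause of the change to 23.3% was not tested. Measured between midpoints, the median distance was 12886.5 bp to Kcr and 8096 bp to H3K14cr, and 17.1% of members lay within 5 kb of Kcr. With regions up to 200 bp apart joined, the median gap to H3K14cr was 6710 bp and the share within 1 kb of H3K14cr 6.54%; the latter result and its alternatives were added after seeing the data. With 500 kb windows the ratio of chromosome ends to the rest was 0.77. Leaving out each chromosome in turn gave ratios of 0.87 to 0.90 and shares of next regions of 40.8 to 41.7%. Placement relative to genes and base composition were not run. The unknown depth limits every statement on absence of Kcr.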
